A study of Homo sapiens with 35 samples.

Results

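The 33 human genes for ubiquitin E2 conjugating enzymes that could be followed in these RNA sequencing data are described here. They were chosen by name and by total count: every protein-coding entry whose symbol begins with UBE2 and that reached 50 or more counts over all 35 libraries. They were 33 of the 17999 protein-coding entries with a count, of 19665 listed. Of the 34 protein-coding UBE2 entries, UBE2U alone missed the threshold, with a total of 0 counts, and the members just inside it were UBE2C with 112 counts and UBE2F with 2428 counts.

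The libraries came from RPMI-8226, an established multiple myeloma cell line, which is a cancer of antibody-secreting plasma cells. Cells were exposed to 750 nM carfilzomib for 1 h, washed, and kept in medium without drug. RNA was collected on days 1, 2, 4, 6, 8 and 10 after this pulse and on day 0, from 5 subcultures a day. The labels list carfilzomib for the day 0 libraries too, whereas the study's methods place the day 0 collection before the drug, so day 0 was taken as untreated. All groups are thus 1 cell line, and no untreated culture of a later day was analysed here, so the effect of the drug and that of time in culture cannot be told apart. The methods describe the subcultures as split from 1 expanded culture, so p-values measure the spread between these subcultures. All comparisons with day 0 used the same 5 day 0 libraries. The labelled cell type was checked first: the plasma cell markers SDC1, IRF4 and XBP1 were present in every library, at 209.6 to 362 CPM, 292 to 574 CPM and 369.8 to 498 CPM. Markers of other blood cells were low but not all absent: the T cell marker CD3D and the monocyte marker LYZ stayed at or below 0.317 CPM in all 35 libraries, whereas the T cell marker CD3E spanned 0.441 to 4.81 CPM, the monocyte marker CD14 0 to 2.15 CPM and the B cell markers PAX5 and MS4A1 0.963 to 4.71 CPM and 3.73 to 13.3 CPM.

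Ubiquitin is a small protein that is attached to other proteins in a relay: an E1 enzyme activates it, an E2 conjugating enzyme carries it on a cysteine, and an E3 ligase selects the protein to be modified. The E2 largely sets what is built, since some E2s place a first ubiquitin while others extend chains through K48 linkages, which send a protein to the proteasome, or through K63 linkages, which serve signalling and repair. Carfilzomib blocks the proteasome irreversibly, and plasma cells depend on it heavily because they make much antibody in the endoplasmic reticulum (ER) and clear misfolded chains through ER-associated degradation.

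Levels are given in CPM, counts scaled to the protein-coding total of each library with TMM factors, and each named change is a log2 fold change with its standard error (SE) from edgeR's quasi-likelihood test over all 17999 entries, with Benjamini–Hochberg adjusted p and a call at or below 0.05. CPM does not correct for gene length, so levels are compared between days and not between genes. In bulk RNA, fewer cells with a transcript and less of it per cell cannot be told apart. Libraries held 6519392 to 10962890 counts (median 7643975), of which the E2 genes took 13113 to 25556. Their share of protein-coding counts was 0.238% ± 0.00688 (SD, n = 5) on day 0, 0.285% ± 0.00659 on day 1, and 0.273% ± 0.00367 on day 2. By day 10 it had come down to 0.258% ± 0.00467. The day 0 libraries spanned 0.23% to 0.247%, below every library of day 1 (0.274% to 0.29%) and of day 10 (0.254% to 0.264%).

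More E2 genes rose than fell after the pulse. On day 1, 18 of the 33 were higher than on day 0 and 6 were lower, whereas over all entries tested 25.4% were called higher and 27.3% lower. The thresholds of these sets differ: E2 genes had 50 or more counts in total, whereas all entries with any count were tested. The low-count filter filterByExpr kept 32 of the 33 E2 genes but 12301 of the 17999 entries. Every share over all entries given here thus includes sparsely counted genes, and protein-coding shares at the E2 threshold were not taken. How much of the E2 excess this accounts for was not tested. The median log2 fold change of the 33 was 0.21 on day 1, beside -0.06 over all entries, and single genes ranged from -1.27 to 2.06. Of the 7 plasma cell markers read, 0 were higher and 5 lower on day 1, with a median of -0.62, and 4 were higher and 1 lower on day 2. Their part in the changes of the E2 genes was not tested. On day 2, 16 were higher and 6 lower (23.2% and 24.4% over all entries), with a median of 0.18 beside -0.04. On day 4, 11 were higher and 6 lower (19.0% and 20.1% over all entries). On days 6 and 8, 10 were higher and 6 lower each time, where over all entries 17.5% were called higher and 17.0% lower for day 6, and 18.2% higher and 18.6% lower for day 8. On day 10, 10 were still higher and 7 lower (16.1% and 15.8%). From day 1 to day 2, 7 E2 genes rose and 14 fell, beside 20.2% and 19.4% of all entries. Most E2 genes stayed within a fold change of 2: 7 genes passed it on day 1 (6 higher and 1 lower), 3 on day 2 (2 higher and 1 lower) and only UBE2T on each later day. The share of all entries past this fold change was not taken.

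**Figure D1:**
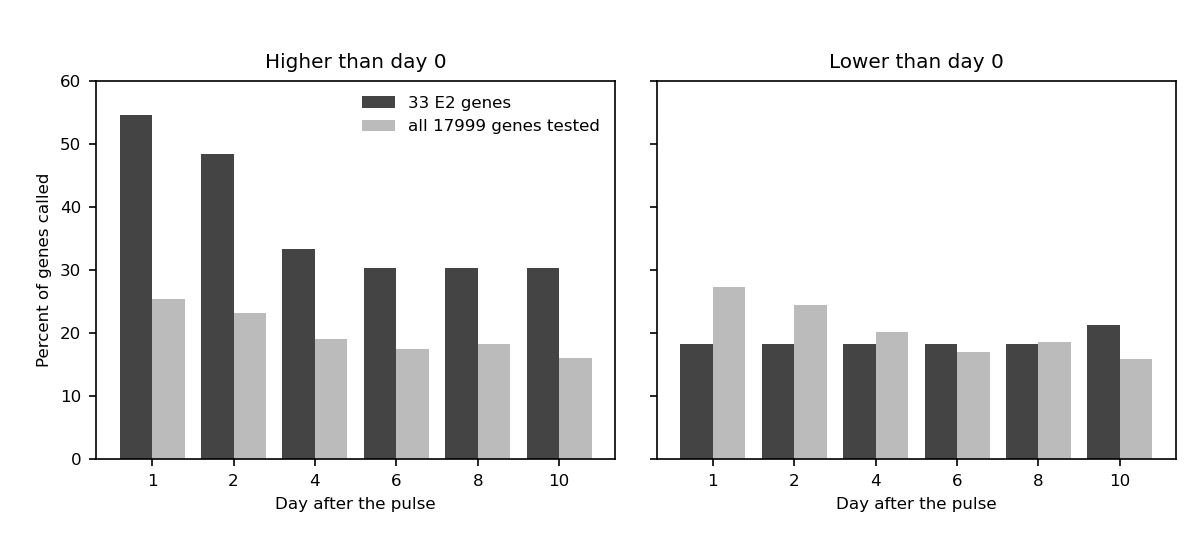
Percent of the 33 E2 genes (dark bars) and of all 17999 entries tested (light bars) that were higher (left) or lower (right) than day 0 at an adjusted p of 0.05 or less, by day after the pulse. The dark bars for higher genes stood above the light ones on all 6 days, with 18 of 33 genes on day 1. The E2 genes had 50 or more counts in total, whereas the light bars include every entry with a count.

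Over the 6 days, 17 of the 33 genes were called only higher, 6 only lower and 8 in both directions on different days, and UBE2C and UBE2E2 were called on none, although UBE2E2 was called lower on day 1 with RLE factors (-0.37, adjusted p = 0.0381), by DESeq2 (-0.37, adjusted p = 0.0359), with filterByExpr (-0.37, adjusted p = 0.027) and with transcript classes summed (-0.33, adjusted p = 0.00619). UBE2D2, UBE2N, UBE2O and UBE2T were higher on all 6 days, and UBE2QL1 and UBE2Z were lower on all 6. Of these calls, that of UBE2D2 on day 6 (adjusted p = 0.0545 without day 0 replicate 3), of UBE2Z on day 1 (adjusted p = 0.0807 without day 1 replicate 2) and of UBE2QL1 on day 10 (adjusted p up to 0.0732 without day 0 replicate 2 or day 10 replicate 5) were lost when a single library was left out. The largest absolute change fell on day 1 for 14 genes and on day 2 for 9. Such counts over the days were not taken for all entries, so they describe the E2 genes only.

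**Figure D2:**
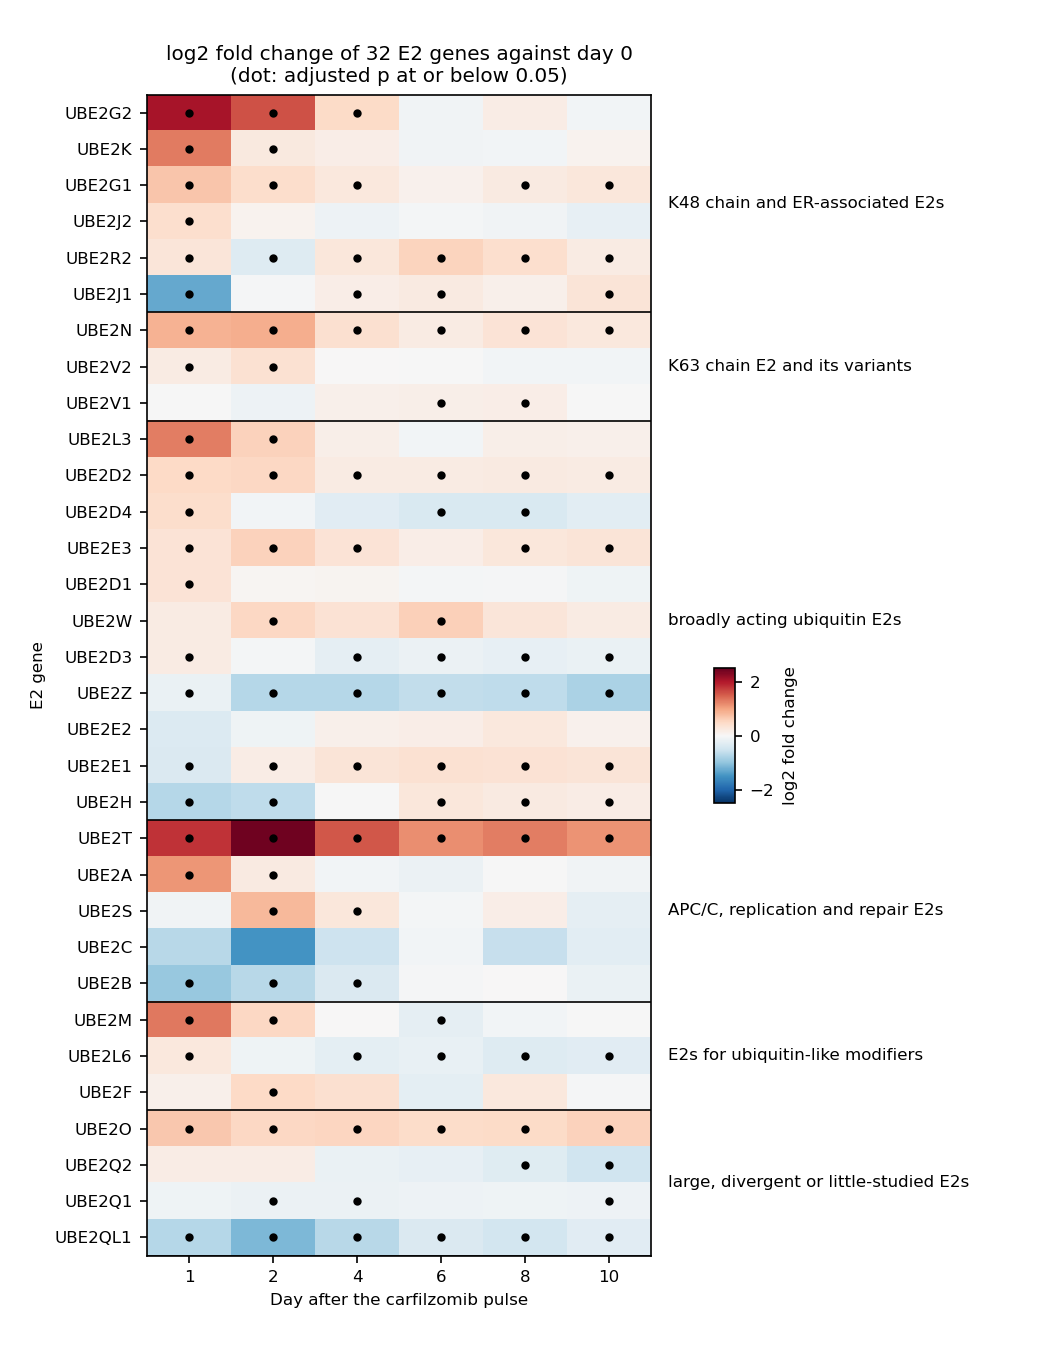
log2 fold change against day 0 (colour, blue for lower and red for higher) of 32 of the 33 E2 genes (rows, grouped by role and ordered by the day 1 value) on days 1 to 10 (columns). Black dots mark an adjusted p of 0.05 or less. UBE2T stayed red on all days, and UBE2J1 and UBE2H were blue on day 1 and red on day 10.

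All 6 E2s that build K48 chains or act at the ER changed on day 1, with 5 higher and 1 lower (25.4% and 27.3% over all entries). UBE2G2 (chr21:44768580-44801826, minus strand), an E2 of ER-associated degradation that extends K48 chains, showed the largest rise of all 33 in its protein-coding entry. It stood at 13.4, 17.5, 11.4, 18.4 and 21.4 CPM in the 5 day 0 libraries and at 52.5, 68.2, 72.8, 79.8 and 67.0 CPM on day 1. Every day 1 library lay above every day 0 library. The difference was 4.17-fold (log2 fold change 2.06 ± 0.17 (SE), adjusted p = 5.6e-14). On day 2 it stood at 58.3, 53.6, 46.1, 45.7 and 40.0 CPM, still above all of day 0 (2.99-fold, log2 fold change 1.58 ± 0.17 (SE), adjusted p = 1.27e-10), and on day 10 its range of 9.50 to 21.0 CPM overlapped that of day 0. This rise belonged to the protein-coding entry only, since another transcript class of the gene moved the other way, as described further on: with the counts of all classes of each symbol summed, UBE2G2 was lower on day 1 (log2 fold change -0.80, adjusted p = 3.63e-31) and on day 10 (-0.45, adjusted p = 3.86e-10).

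UBE2K (chr4:39698109-39782792, plus strand), which can build K48 chains without a ligase, was at 65.1, 56.5, 54.9, 59.9 and 58.5 CPM on day 0 and at 144, 141, 149, 149 and 140.2 CPM on day 1. The groups did not overlap (2.44-fold higher, log2 fold change 1.29 ± 0.08 (SE), adjusted p = 1.88e-18). The rise had mostly passed by day 2, when UBE2K fell by 1.04 on the log2 scale from day 1 to a mean of 70.4 ± 6.53 CPM (SD, n = 5). UBE2G1 (chr17:4269259-4366675, minus strand), the closest relative of UBE2G2, rose from 73.4, 75.4, 75.3, 83.6 and 85.1 CPM to 118, 134, 128, 129.7 and 126 CPM, again without overlap (log2 fold change 0.70 ± 0.07 (SE), adjusted p = 1.5e-11). UBE2R2, a partner of cullin-RING ligases, was higher on day 1 (0.30 ± 0.07), lower on day 2 (-0.31 ± 0.07) and higher again from day 4 on, with its largest rise on day 6 (0.56 ± 0.06). The fall on day 2 was no longer called with transcript classes summed (-0.19, adjusted p = 0.0551). All counts of UBE2R2 lay in the protein-coding class, so the sum left them unchanged.

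UBE2J1 and UBE2J2 are both anchored in the ER membrane and serve ER-associated degradation, UBE2J1 with the ligase SYVN1. UBE2J1 (chr6:89326625-89352722, minus strand) showed the largest fall on day 1 of all 33: it stood at 251, 254, 259, 271 and 256 CPM on day 0 and at 96.4, 109, 112, 111 and 105 CPM on day 1. All day 1 libraries were below all day 0 libraries (2.42-fold lower, log2 fold change -1.27 ± 0.05 (SE), adjusted p = 2.72e-23). One day later the loss was gone, at 258, 258, 245, 238 and 264 CPM, a step of 1.24 ± 0.05 in log2 from day 1 to day 2, the largest rise of any E2 gene over that step (adjusted p = 1.39e-22). By day 10 it stood above day 0, at 316, 323, 311, 316 and 351 CPM, without overlap (log2 fold change 0.32 ± 0.05 (SE), adjusted p = 1.61e-06). UBE2J2 (chr1:1253909-1273864, minus strand) moved the other way on day 1, from 50.6, 51.1, 51.1, 55.1 and 41.2 CPM to 57.9, 75.1, 73.3, 61.9 and 66.3 CPM, again without overlap (log2 fold change 0.42 ± 0.09 (SE), adjusted p = 0.000187). It was called on no later day in the main fit, but with transcript classes summed it was called lower on day 6 (-0.23, adjusted p = 0.0112) and day 10 (-0.26, adjusted p = 0.00555). Without day 0 replicate 5 it was also called lower on day 10 (adjusted p = 0.0489).

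**Figure D3:**
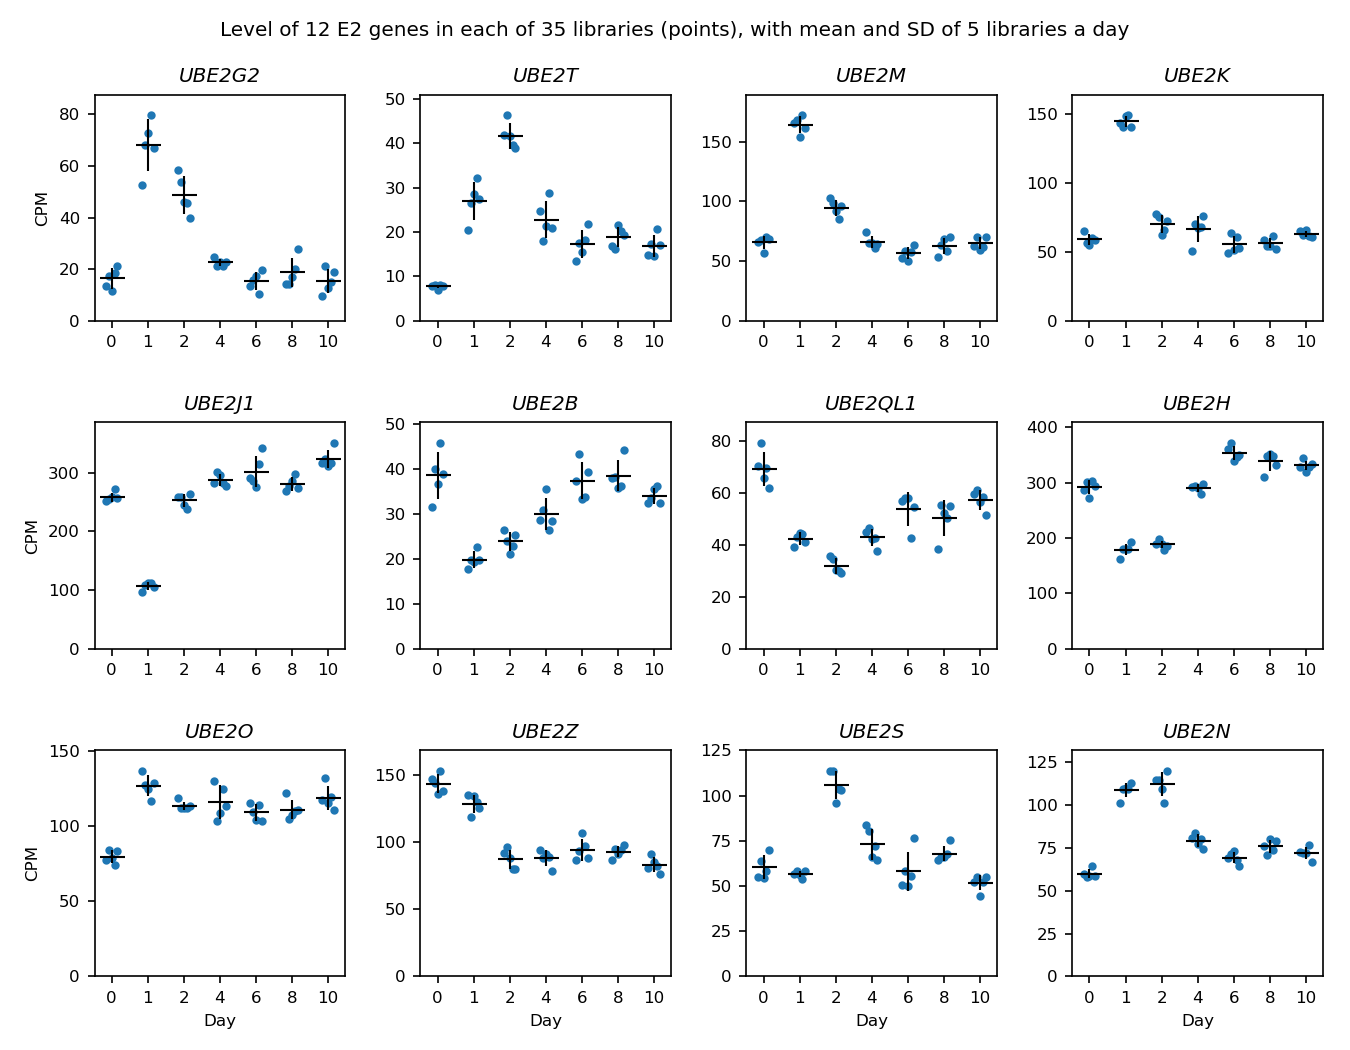
Level in CPM (vertical axes, from 0) of 12 E2 genes by day (horizontal axes). Points are the 5 libraries of a day, the horizontal mark is their mean and the vertical line their SD. UBE2G2, UBE2M and UBE2K peaked on day 1, UBE2T on day 2, UBE2J1 had its trough on day 1 with all libraries below day 0, and UBE2O and UBE2Z stayed apart from day 0 to day 10.

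UBE2N (chr12:93405673-93441947, minus strand) is the E2 of K63 chains and works only in a pair with UBE2V1 or UBE2V2, E2 variants that lack the catalytic cysteine. UBE2N was higher on all 6 days, at 59.6, 58.1, 58.5, 64.5 and 58.7 CPM on day 0, 102, 109.7, 110.2, 109 and 113 CPM on day 1 and 72.6, 71.9, 72.2, 76.9 and 67.0 CPM on day 10. No library of days 1 or 10 reached down to the day 0 range. The log2 fold change was 0.86 ± 0.05 on day 1, 0.91 ± 0.05 on day 2 and 0.27 ± 0.05 on day 10 (adjusted p = 0.000111). Its partners moved less. UBE2V1 had a log2 fold change of -0.00 ± 0.06 on day 1, short of a call (0.19 and called higher with transcript classes summed, adjusted p = 0.0262), and UBE2V2 of 0.20 ± 0.08 on day 1, a call that was lost in 8 of the 10 fits that left out 1 library (adjusted p 0.0128 to 0.198), and of 0.39 ± 0.08 on day 2 (adjusted p = 6.58e-05). In the current annotation 41.6% of the exonic bases of UBE2N lie opposite NUDT4, and 43.2% of those of UBE2V1 are shared with a read-through gene on the same strand, which the deposited table lists as TMEM189-UBE2V1 with 558 counts against 25928 for UBE2V1.

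Of the 11 broadly acting E2s, which pair with many ligases, 6 were higher and 3 lower on day 1 (25.4% and 27.3% over all entries). UBE2L3 (chr22:21549447-21624034, plus strand), which passes ubiquitin only to ligases of the HECT and RBR families, rose most, from 28.8, 27.8, 25.6, 35.5 and 29.3 CPM to 63.2, 69.6, 75.4, 75.3 and 73.0 CPM. The groups lay well apart (2.43-fold, log2 fold change 1.28 ± 0.08 (SE), adjusted p = 8.79e-17), and the rise was smaller on day 2 (0.57 ± 0.09). It was not called from day 4 on in the main fit. With transcript classes summed it was called on days 4 and 8 (0.24, adjusted p = 0.0343, and 0.23, adjusted p = 0.0466). Without scaling factors it was called on day 4 (0.26, adjusted p = 0.0131). Without day 0 replicate 4 it was called on days 4 and 8 (adjusted p = 0.0365 and 0.0431). Of the UBE2D genes, whose products are the most widely used partners of RING ligases, UBE2D2 (chr5:139526431-139628434, plus strand) rose from 87.5, 92.4, 80.8, 95.2 and 91.6 CPM to 110.1, 124, 122, 148 and 132 CPM (log2 fold change 0.51 ± 0.06 (SE), adjusted p = 5.16e-09) and stayed higher to day 10 (0.21 ± 0.06). UBE2D3 (chr4:102794383-102868896, minus strand) stood at 193, 199.97, 212, 215 and 214 CPM on day 0 and 221, 234, 247, 261 and 233 CPM on day 1. It was thus slightly higher on day 1 (log2 fold change 0.21 ± 0.05 (SE), adjusted p = 0.000641), and it was lower on day 4 (-0.23 ± 0.05) and day 10 (-0.17 ± 0.05). Both later calls were lost without scaling factors (-0.11, adjusted p = 0.076, and -0.10, adjusted p = 0.113) and with transcript classes summed (-0.13, adjusted p = 0.167, and -0.13, adjusted p = 0.21).

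UBE2H (chr7:129830732-129952960, minus strand), the E2 of the CTLH ligase complex, fell from 287, 300.4, 272, 304 and 294 CPM to 163, 179.7, 181, 179 and 192 CPM on day 1. All day 1 libraries were below day 0 (log2 fold change -0.70 ± 0.05 (SE), adjusted p = 3.79e-17). It then crossed over: on day 10 it stood at 329, 344, 319, 329 and 335 CPM, above all day 0 libraries (log2 fold change 0.18 ± 0.04 (SE), adjusted p = 0.000968). UBE2E1 (chr3:23805955-23891640, plus strand) also fell on day 1, from 173, 167, 173, 187 and 164 CPM on day 0 to 133, 128, 140.4, 140.5 and 130.3 CPM on day 1 without overlap (log2 fold change -0.36 ± 0.05 (SE), adjusted p = 1.3e-07). On day 2 it was already higher than day 0 (0.18 ± 0.05), while UBE2H was still lower (-0.63 ± 0.04), and on day 10 it stood 0.32 ± 0.05 above day 0. Its relative UBE2E3 (chr2:180967248-181076585, plus strand) went up instead, from 26.3, 30.6, 27.7, 30.5 and 30.03 CPM to 37.0, 32.3, 42.0, 35.7 and 36.5 CPM (log2 fold change 0.34 ± 0.08 (SE), adjusted p = 0.000548). In the annotation 33.8% of the exonic bases of UBE2E1 lie opposite NKIRAS1.

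UBE2Z (chr17:48908407-48929056, plus strand), which is charged by the alternative E1 enzyme UBA6, was the E2 gene with the lowest level relative to day 0 at the end of the series. It stood at 147, 144, 136, 153 and 138 CPM on day 0, 92.0, 96.1, 88.1, 80.0 and 80.1 CPM on day 2 and 80.7, 91.2, 85.1, 82.5 and 76.4 CPM on day 10. Neither later group touched the day 0 range, with a log2 fold change of -0.72 ± 0.06 on day 2 and -0.79 ± 0.06 on day 10 (adjusted p = 7.65e-14). On day 1 the fall was small (-0.16 ± 0.06, adjusted p = 0.0235), the call that 1 library decided, and it was also lost without scaling factors (-0.04, adjusted p = 0.529) and with transcript classes summed (-0.12, adjusted p = 0.175).

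UBE2T (chr1:202331544-202341984, minus strand), which works with FANCL in the Fanconi anaemia pathway of DNA crosslink repair, had the largest lasting rise. It stood at 7.88, 7.94, 6.97, 8.02 and 7.70 CPM on day 0 and at 20.4, 26.4, 28.6, 32.2 and 27.4 CPM on day 1. It reached 41.9, 46.3, 41.6, 39.6 and 38.9 CPM on day 2 and was at 14.8, 17.2, 14.5, 20.6 and 17.0 CPM on day 10. Every library of those later days was above every day 0 library. The rise was 3.49-fold on day 1 (log2 fold change 1.80 ± 0.14 (SE), adjusted p = 1.02e-14), 5.41-fold on day 2 (log2 fold change 2.43 ± 0.13 (SE), adjusted p = 3.41e-19) and still 2.19-fold on day 10 (log2 fold change 1.13 ± 0.15 (SE), adjusted p = 3.35e-08). UBE2S, which extends chains on the anaphase-promoting complex (APC/C) in mitosis, was at 54.8, 64.1, 54.7, 58.3 and 70.1 CPM on day 0 and 56.5, 58.5, 55.9, 54.0 and 58.2 CPM on day 1, which overlapped, and at 114, 114, 95.7, 104 and 103 CPM on day 2, above both. Its day 2 log2 fold change was 0.81 ± 0.09 (adjusted p = 9.38e-11), and on day 10 its libraries overlapped day 0 again. A list of 10 mitotic genes rose over the same days: 6 rose and 2 fell on day 1 (25.4% and 27.3% over all entries). All 10 were higher on every later day, when 16.1% to 23.2% of all entries were called higher. Their median log2 fold change was 2.30 on day 2 and 1.08 on day 10. The mean log2 CPM of the list was 4.43 ± 0.075 (SD, n = 5) on day 0, 4.73 ± 0.124 on day 1 and 6.67 ± 0.033 on day 2. The part of dividing cells in the rise of UBE2T and UBE2S was not tested. UBE2C, the E2 that starts chains on the APC/C, was barely counted: its 112 counts over 35 libraries left 9 on day 2 and 20 on day 0, its levels spanned 0 to 1.13 CPM, and its pseudogene UBE2CP2 was given 70 counts, so its log2 fold change of -1.50 ± 0.74 on day 2 (adjusted p = 0.0922) is uncertain. It passed the threshold only without day 2 replicate 2 (adjusted p = 0.00537).

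UBE2A (chrX:119474802-119591083, plus strand) and UBE2B (chr5:134371184-134392108, plus strand) are near-identical human forms of yeast Rad6, which ubiquitinates histone H2B and the replication clamp PCNA. They moved in opposite directions on day 1. UBE2A rose from 48.2, 49.8, 47.4, 61.7 and 53.5 CPM to 99.2, 112, 107, 127 and 111 CPM, with no overlap (2.14-fold, log2 fold change 1.10 ± 0.07 (SE), adjusted p = 4.15e-17). UBE2B fell from 31.5, 39.8, 36.6, 45.7 and 38.7 CPM to 17.6, 19.7, 19.3, 22.6 and 19.6 CPM, again with no overlap (1.94-fold, log2 fold change -0.96 ± 0.10 (SE), adjusted p = 2e-11). On day 10 both overlapped their day 0 ranges, with log2 fold changes of -0.09 ± 0.07 and -0.17 ± 0.09. With transcript classes summed, UBE2A was no longer called on day 2 (0.002, adjusted p = 1) and was called lower on day 10 (-0.25, adjusted p = 0.00799). In the annotation 15.9% of the exonic bases of UBE2A lie opposite NKRF, on the other strand.

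Of the 4 E2s of ubiquitin-like modifiers, 2 were higher and 0 lower on day 1 (25.4% and 27.3% over all entries). UBE2M (chr19:58555712-58558954, minus strand), which charges NEDD8 for most cullin-RING ligases, rose from 66.0, 67.9, 56.5, 69.9 and 68.7 CPM to 166, 168, 154, 172 and 161 CPM on day 1. The 2 groups lay far apart (2.50-fold, log2 fold change 1.32 ± 0.07 (SE), adjusted p = 7.04e-20), and the rise had shrunk to 0.53 ± 0.07 in log2 on day 2. UBE2F (chr2:237966827-238042782, plus strand), the other NEDD8 E2, stood at 10.3, 8.73, 5.36, 12.6 and 10.2 CPM on day 0 and 16.3, 6.77, 7.79, 10.1 and 10.5 CPM on day 1. The groups overlapped (0.14 ± 0.22), although the rise was called with transcript classes summed (0.30, adjusted p = 0.0309). UBE2L6 (chr11:57551656-57568284, minus strand), the E2 of the interferon-induced modifier ISG15, went from 65.8, 73.3, 66.3, 77.8 and 74.1 CPM to 78.2, 88.9, 87.7, 88.0 and 83.4 CPM on day 1 without overlap (log2 fold change 0.26 ± 0.07 (SE), adjusted p = 0.00117) and was below day 0 on day 10 (-0.28 ± 0.07).

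UBE2O (chr17:76389456-76453152, minus strand) is a large E2 that also acts as its own ligase on orphan proteins. It rose from 77.2, 84.3, 78.7, 74.2 and 83.5 CPM on day 0 to 137, 127, 125, 117 and 128 CPM on day 1 and was at 117, 132, 115, 119 and 110.4 CPM on day 10. No library of days 1 or 10 fell into the day 0 range, and the log2 fold change was 0.67 ± 0.06 on day 1 and 0.58 ± 0.06 on day 10 (adjusted p = 1.57e-10). UBE2QL1 (chr5:6448859-6496723, plus strand), a little-studied relative of the UBE2Q genes, fell from 70.5, 79.2, 65.6, 69.5 and 61.8 CPM to 39.0, 43.1, 44.5, 44.3 and 40.9 CPM on day 1 and 35.6, 34.3, 30.2, 29.8 and 29.1 CPM on day 2. Both later groups were below all day 0 libraries, with log2 fold change -1.12 ± 0.09 (SE), adjusted p = 1.94e-14 on day 2. It had come most of the way back by day 10, at 59.5, 61.2, 56.4, 58.2 and 51.3 CPM (-0.28 ± 0.08, adjusted p = 0.00935). UBE2Q1 (chr1:154548577-154559028, minus strand) stood at 123, 131, 124, 145 and 119 CPM on day 0 and 115, 117, 123, 117 and 126 CPM on day 1, which overlapped. A fall on day 1 was called with RLE factors (-0.13, adjusted p = 0.0312), filterByExpr (-0.14, adjusted p = 0.0141) and DESeq2 (-0.13, adjusted p = 0.0205). It was also called in 3 of the 10 fits that left out 1 library (adjusted p down to 0.0247). UBE2Q1 was called lower on days 2 (-0.15 ± 0.05), 4 (-0.16 ± 0.05) and 10 (-0.14 ± 0.05). Those calls were lost without scaling factors and with transcript classes summed. UBE2Q2 (chr15:75843307-75901078, plus strand) was at 26.9, 31.3, 26.3, 29.1 and 30.8 CPM on day 0, 31.0, 38.4, 31.0, 30.5 and 32.1 CPM on day 1 and 17.8, 22.9, 20.8, 17.9 and 22.3 CPM on day 10. Its day 10 libraries lay below all of day 0 (log2 fold change -0.50 ± 0.09 (SE), adjusted p = 2.61e-05).

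Because several relatives went different ways, the difference in log2 CPM between the 2 genes of 9 close pairs was taken within each library and compared between days by an exact two-sided permutation test of 5 against 5 libraries, with p adjusted over all 18 tests. Such a difference does not depend on the scaling of libraries. The smallest p this design allows is 0.00794, which becomes 0.0143 after adjustment. On day 1, 8 of 9 pairs differed from day 0, and on day 10, 4 of 9. The pairs were chosen with earlier results of these data known, and no share over other gene pairs was taken. These counts and p-values therefore describe the 9 pairs only and are not independent support. UBE2A minus UBE2B was 0.61, 0.32, 0.37, 0.43 and 0.46 in the day 0 libraries and 2.47, 2.49, 2.45, 2.48 and 2.48 in the day 1 libraries. The shift of 2.04 was the largest of the 9, and the SD of the 5 day 1 values was 0.0137 (exact permutation adjusted p = 0.0143). On day 10 the shift was 0.08 (exact permutation adjusted p = 0.276), but with all transcript classes summed it turned to -0.23 (exact permutation adjusted p = 0.0306). UBE2J1 minus UBE2J2 was 2.31, 2.31, 2.33, 2.29 and 2.63 on day 0 and 0.73, 0.54, 0.61, 0.84 and 0.66 on day 1. It dropped by 1.70 on day 1 and stood 0.53 above day 0 on day 10, both without overlap.

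UBE2G1 minus UBE2G2 dropped by 1.36 on day 1, from 2.43, 2.09, 2.69, 2.16 and 1.98 to 1.16, 0.98, 0.81, 0.70 and 0.91, but with all transcript classes summed it rose by 1.63 instead (exact permutation adjusted p = 0.013). UBE2M minus UBE2F rose by 1.21 on day 1 and UBE2L3 minus UBE2L6 by 1.02, the former with overlapping groups (exact permutation adjusted p = 0.026) and the latter without (0.0143). UBE2E1 minus UBE2E3 dropped by 0.69 on day 1 and had returned by day 10, with a shift of -0.005 (exact permutation adjusted p = 1). The shift of UBE2D2 minus UBE2D3 was small but lasting, 0.29 on day 1 and 0.38 on day 10, without overlap at either time. UBE2Q1 minus UBE2Q2 dropped by 0.27 on day 1 (exact permutation adjusted p = 0.0357), which was lost without day 1 replicate 1 (0.0549), day 1 replicate 2 (0.0714) or day 0 replicate 4 (0.0714), and rose by 0.37 on day 10. UBE2V1 minus UBE2V2 did not pass on either day, with a shift of -0.19 on day 1 (exact permutation adjusted p = 0.163).

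**Figure D4:**
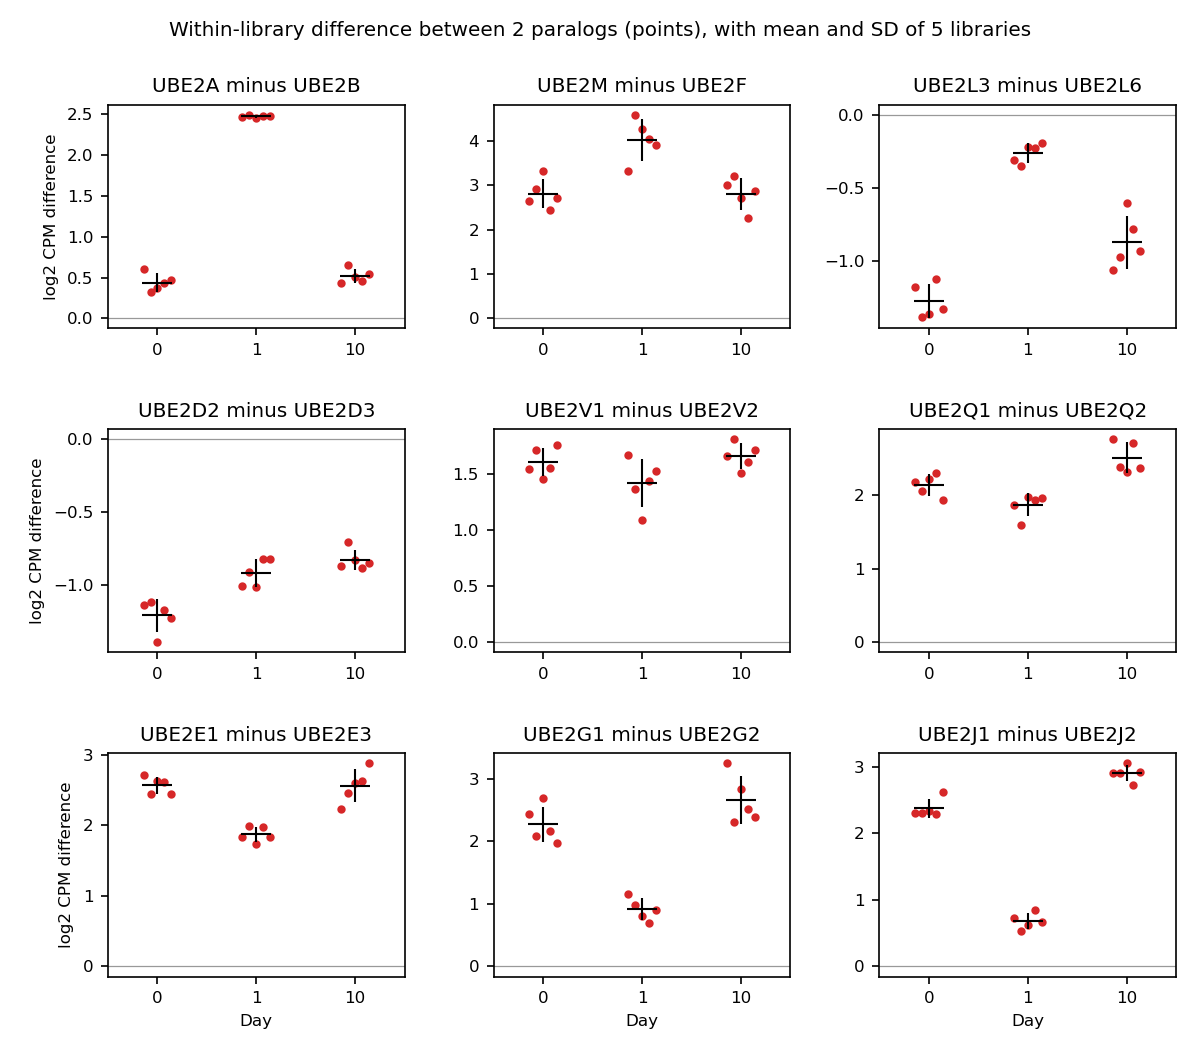
Difference in log2 CPM between 2 related E2 genes within each library (vertical axes) on days 0, 1 and 10 (horizontal axes) for 9 pairs. Points are 5 libraries, horizontal marks their mean and vertical lines their SD, and the grey line marks 0. The values are those of the protein-coding entries, in which UBE2A minus UBE2B rose by 2.04 on day 1 and stood 0.08 above day 0 on day 10 (-0.23 with all transcript classes summed), and UBE2J1 minus UBE2J2 dropped by 1.70 and overshot.

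The table lists counts for each gene and transcript class separately, and in UBE2G2 the protein-coding class was the smaller one. The class of transcripts with a retained intron, which carry an unspliced intron and are not expected to give the full protein, held 84.1% of the 50047 counts of this gene. Scaled over all 65717 entries of every class with a count, the retained intron class stood at 241, 216, 252, 175 and 223 CPM on day 0 and at 92.4, 79.5, 69.6, 65.1 and 87.1 CPM on day 1, while the protein-coding class stood at 9.87, 13.5, 8.27, 14.3 and 16.7 CPM and 43.2, 59.8, 65.2, 71.3 and 59.2 CPM. The 2 classes moved in opposite directions and neither overlapped between the days. The retained intron class fell 2.81-fold (log2 fold change -1.49 ± 0.11, adjusted p = 2.45e-14). The protein-coding share of UBE2G2 counts was 5.34% ± 1.83 (SD, n = 5) on day 0, 41.7% ± 7.18 on day 1, 23.4% ± 4.31 on day 2, and by day 10 it was 7.11% ± 2.78. The share on day 1 differed from day 0 by an exact permutation test (two-sided p = 0.00794, the smallest that 5 against 5 allows) and that on day 10 did not pass (exact permutation p = 0.286). Kallisto divides reads shared by several transcripts of a gene by estimation, so the split between classes is less certain than their sum. The current annotation holds 3 retained intron and 2 protein-coding transcripts of UBE2G2.

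**Figure D5:**
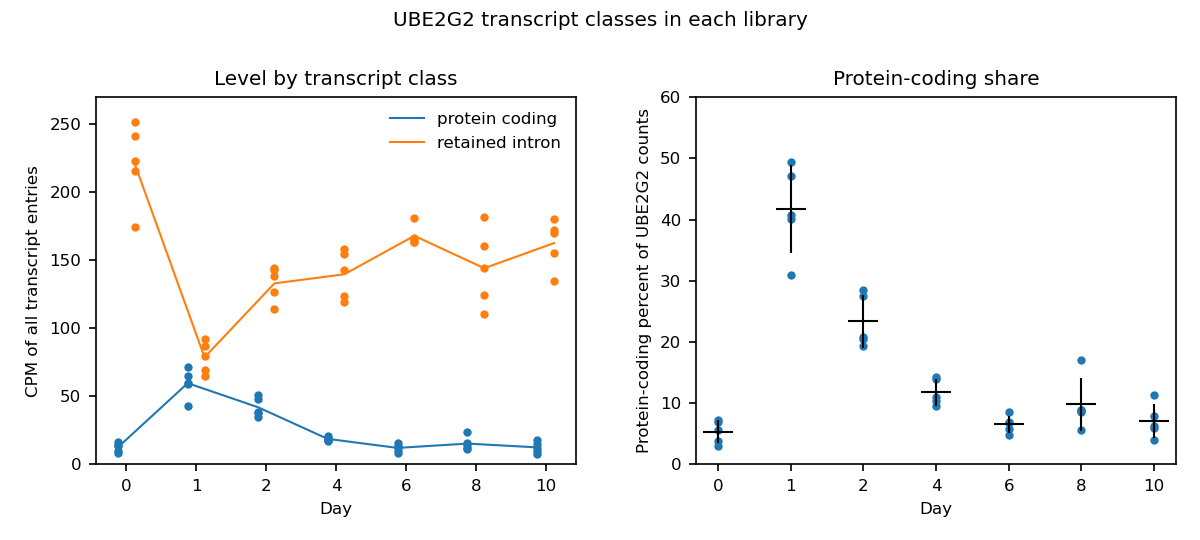
Left, CPM over all transcript entries (vertical axis) of the protein-coding (blue) and retained intron (orange) classes of UBE2G2 by day, with points for the 5 libraries and lines through the means. Right, the protein-coding percent of UBE2G2 counts by day, with mean and SD. The share was 5.34% on day 0, 41.7% on day 1 and 7.11% on day 10.

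The same fit was read for the other retained intron entries of the E2 genes, after the UBE2G2 result had been seen. Of 18 such entries with 50 or more counts, 6 were lower and 1 higher on day 1, beside 22.7% lower and 5.89% higher among all 6436 retained intron entries of that size, and the median log2 fold change was -0.36 beside -0.43. Among the 6 were those of UBE2A (-1.14 ± 0.22), UBE2B (-1.39 ± 0.51), UBE2G2, UBE2H (-3.94 ± 0.65) and UBE2Z (-1.31 ± 0.23). The UBE2H entry had only 225 counts over all libraries, at 0.1155 CPM on day 1 against 1.98 CPM on day 0, so its size of change is uncertain. That of UBE2B was also low, at 0.594 CPM against 1.58 CPM (adjusted p = 0.0427). Those of UBE2A and UBE2Z stayed lower on day 10, with log2 fold changes of -0.97 and -0.98. The UBE2A entry thus fell while the protein-coding UBE2A entry rose. That of UBE2T rose with its protein-coding entry (2.23 ± 0.40). Of 16 E2 entries with 50 or more counts in the class of transcripts marked for nonsense-mediated decay, 3 were higher and 1 lower on day 1, beside 9.10% higher and 9.58% lower among all 4166 entries of that class and size. Those of UBE2K (1.83 ± 0.35), UBE2D2 (1.79 ± 0.36) and UBE2G1 (0.71 ± 0.24) rose, as their protein-coding entries did, and that of UBE2E2 fell (-0.65 ± 0.21).

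Promoter sequences from RefSeq (GRCh38.p14), 250 bases before to 50 bases after each annotated start site, were found for 26 of the 33 genes, with 38 start sites. Both strands were searched for 5 short motifs. The core bound by CNC-bZIP factors such as NRF1 and NRF2, which drive proteasome and antioxidant genes (TGACNNNGC), was in the promoters of 5 of the 26 genes, beside 16.1% of all 27305 genes with a promoter: UBE2D2, UBE2E3, UBE2J1, UBE2K and UBE2Q2. The heat shock element core (GAANNTTC) was in 0 of 26, beside 8.21%. The cell cycle homology region (TTTGAA), a motif of genes expressed in mitosis, was in UBE2T and UBE2F, beside 18.2%. The CCAAT box (CCAAT) was in 8 of 26, beside 39.7%, and the CRE core (TGACGTCA) in 1, UBE2S, beside 2.25%. A match is a run of letters and not a bound site. Of the 5 genes with the CNC-bZIP core, 3 were higher on day 1, beside 17 of all 26. UBE2J1, which has this core, showed the largest fall on day 1, and UBE2Q2 was not called that day. UBE2F, with the cell cycle homology region, was not called on day 1 in its protein-coding entry. The part of these motifs in the changes was not tested. Of the genes whose levels are given above, the matches of UBE2T, with its lasting rise, of UBE2K, with its rise on day 1, and of UBE2S, with its rise on day 2, are shown as 3 stretches. Capitals mark the matches, in the direction of transcription. UBE2T (chr1:202341993-202342101, minus strand, bases -165 to -57 from the start site) holds the cell cycle homology region followed by 2 CCAAT boxes. UBE2K (chr4:39698089-39698121, plus strand, -47 to -15) holds the CNC-bZIP core read on the opposite strand. UBE2S (chr19:55407857-55407888, minus strand, -100 to -69) holds the CRE core.
UBE2T: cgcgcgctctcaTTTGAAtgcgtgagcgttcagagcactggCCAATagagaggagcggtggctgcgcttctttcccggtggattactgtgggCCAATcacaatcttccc
UBE2K: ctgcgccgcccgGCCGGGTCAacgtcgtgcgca
UBE2S: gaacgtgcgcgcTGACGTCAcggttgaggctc

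The steps before and after the E2s were read from lists of pathway genes. Of 9 E1 enzymes, 6 were higher and 2 lower on day 1 (25.4% and 27.3% over all entries), with a median log2 fold change of 0.28. The main ubiquitin E1, UBA1, rose most (671 CPM against 344 CPM on day 0, log2 fold change 0.96, adjusted p = 8.57e-20), and UBA7, the E1 of ISG15, fell most (0.819 CPM against 5.80 CPM on day 0, log2 fold change -2.77, adjusted p = 6.63e-10). On day 10, 2 of 9 were higher and 0 lower (16.1% and 15.8% over all entries). Of 11 genes for ubiquitin and ubiquitin-like modifiers, 5 were higher and 5 lower on day 1 (25.4% and 27.3% over all entries). The largest rise was that of NEDD8, the modifier carried by UBE2M (91.8 CPM against 50.4 CPM on day 0, log2 fold change 0.87, adjusted p = 2.95e-13), and the largest fall that of UFM1 (76.3 CPM against 173 CPM on day 0, log2 fold change -1.18, adjusted p = 1.49e-21). The ubiquitin genes UBB and RPS27A were both lower on day 1, with log2 fold changes of -0.26 (adjusted p = 0.00153) and -0.51 (adjusted p = 3.47e-09). Of 8 E2 or E2-like genes outside the UBE2 symbol, 4 were higher and 2 lower on day 1 (25.4% and 27.3% over all entries). UEVLD, a UEV-domain protein without catalytic cysteine, rose most (17.9 CPM against 10.9 CPM on day 0, log2 fold change 0.71, adjusted p = 7.98e-06), and ATG10, the E2-like enzyme that joins ATG12 to ATG5 in autophagy, fell most (18.4 CPM against 27.6 CPM on day 0, log2 fold change -0.59, adjusted p = 5.22e-05). Of 35 E3 ligases and adaptors known to work with these E2s, 20 rose and 5 fell on day 1 (25.4% and 27.3% over all entries). Day 10 had 11 above and 7 below day 0 (16.1% and 15.8% over all entries). The largest rise on day 1 was that of UBR1, an N-degron ligase that pairs with UBE2A and UBE2B (35.5 CPM against 17.9 CPM on day 0, log2 fold change 0.99, adjusted p = 1.05e-08), and the largest fall that of PARK2 (0.0975 CPM against 0.448 CPM on day 0, log2 fold change -2.05, adjusted p = 0.0458), which was close to 0 on both days and was not refitted with single libraries left out. SYVN1, the ligase that works with UBE2J1, was among the 5 that fell (147 CPM against 206 CPM on day 0, log2 fold change -0.49, adjusted p = 5.43e-08).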

How the data were processed

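RNA of RPMI-8226 cells was sequenced on day 0 and on 6 later days, with 5 subcultures a day. The authors deposited estimated counts for each gene symbol and transcript biotype, whole numbers without normalization for library size, made by pseudoalignment of reads to GENCODE transcripts of GRCh38.p12 in Kallisto 0.44.0 with GC correction. Length-adjusted gene-level summaries came from tximport. Whether strand was used is not given in the sources used here.

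Here the 17999 protein-coding entries with a count were fitted with edgeR 4.0.16 in R 4.3.3 (glmQLFit, glmQLFTest, TMM factors of 0.929 to 1.08, day as the factor, all 35 libraries), with Benjamini–Hochberg adjustment over all entries and a call at or below 0.05. For log2 CPM a prior count of 2 was used. On simulated day 1 counts of 16593 genes, the test found 92 of the 100 genes given a 4-fold change and 53 of the 100 given a 1.5-fold change. Libraries held 6519392 counts or more, and no estimate of counting error per gene was made beyond the model.

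Values per library are given for the 4 largest rises and falls among called genes on day 1, the 2 largest on days 2 and 10, and the members of pairs that passed on day 1. UBE2N and UBE2S were given values after their changes were seen, and the values of 1 E2 gene are not reported here. The members, lists, pairs and motifs were chosen with earlier results of these data known. The fit over all transcript classes and the test of the UBE2G2 share were added after seeing the data. Positions came from GENCODE release 44 on GRCh38. The alternatives were RLE factors, no factors, filterByExpr, DESeq2 1.42.0, a replicate block, only the 2 days compared, a fold cutoff, summed transcript classes, other prior counts and each library left out. Pairs of libraries of 1 day differed by more than sampling noise, with a chi-square per gene between 2.5 and 9.33 over 70 pairs, so each was counted as a sample. The files give no sequencing batch or date.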

Additional observations from a re-analysis of the deposited data

Results flagged for a closer look

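In 17 of 231 groups of 5 libraries of 1 day, a single library stood apart from the other 4 by Dixon's criterion on log2 CPM, and chance alone flags about 1 in 20 groups. On day 0 the libraries apart were UBE2C at 0.193 CPM (replicate 5, 1 count), UBE2D1 at 8.76 CPM, UBE2M at 56.5 CPM and UBE2T at 6.97 CPM (all replicate 3, all low) and UBE2N at 64.5 CPM (replicate 4, high).

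On day 1 they were UBE2N at 102 CPM (low) and UBE2Q2 at 38.4 CPM (high). On day 2 they were UBE2G1 at 98.9 CPM and UBE2V1 at 88.9 CPM (both replicate 5, low), UBE2J2 at 46.4 CPM and UBE2L6 at 59.5 CPM (both replicate 4, low) and UBE2O at 118 CPM (high). On day 6 it was UBE2QL1 at 42.4 CPM (low). On day 8 they were UBE2E2 at 16.8 CPM and UBE2QL1 at 38.2 CPM (both replicate 1, low) and UBE2V2 at 36.7 CPM (high). On day 10 it was UBE2S at 44.6 CPM (low).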

How the results depend on the processing

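The number of E2 genes called stayed within 1.5 times its value under RLE factors, no scaling factors, filterByExpr, DESeq2, only the 2 days compared and summed transcript classes in all 7 comparisons. A fold change above 2 added to the threshold left 7 genes on day 1, 3 on day 2, 1 on each of days 4, 6, 8 and 10, and 2 between days 1 and 2. With single libraries left out 22 to 25 genes were called on day 1, 20 to 23 for day 2, 17 to 19 for day 4, 13 to 16 for day 6, 15 to 17 for day 8, 14 to 18 for day 10 and 19 to 21 between days 1 and 2.

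Summing transcript classes changed most: of 231 values of single genes it kept 181 in direction and call, and it turned UBE2G2 to -0.80 (day 1), -0.48 (day 2), -0.60 (day 4), -0.58 (day 8) and 0.32 (day 2 against day 1), UBE2V1 to 0.19 on day 1, UBE2G1 minus UBE2G2 to 1.63 on day 1 and 0.83 on day 10, UBE2A minus UBE2B to -0.23 on day 10 and UBE2V1 minus UBE2V2 to -0.20 on day 1. For UBE2G2 the larger retained intron class enters the sum. UBE2J1, UBE2QL1 and UBE2R2 have counts in the protein-coding class alone, so the sum left their counts unchanged. Their day 1 values still moved, from -1.27 to -1.11, from -0.71 to -0.55 and from 0.30 to 0.46. For the other values that turned, the cause was not tested. Without scaling factors UBE2H turned to 0.11 on day 4. UBE2Q1 minus UBE2Q2 on day 1 ranged from -0.33 to -0.21 over its alternatives.

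With the replicate number as a replicate block the counts were 24, 22, 18, 15, 16 and 17 on days 1 to 10 and 21 between days 1 and 2, and for pairs only the mean shift was taken, UBE2A minus UBE2B remaining at 2.04 on day 1. No tie between same-numbered libraries was seen: their deviations from their day means correlated at -0.07 to 0.07, and 8 of 30 libraries correlated best with the day 0 library of their own number. Such values cannot tell whether the same subcultures were sampled on each day, and the main fit treated all libraries as independent. UBE2C had the fewest counts of the E2 genes followed, with 0 to 8 a library, and the reason was not tested.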

Other observations

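UBE2C, which starts chains on the APC/C, had 112 counts over 35 libraries while the 10 mitotic genes of the list rose to a mean log2 CPM of 6.67 on day 2. Other UBE2 pseudogenes than UBE2CP2 had at most 19 counts each.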
